A study of Mus musculus with 6 samples.

Results

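Insulin receptor signalling in liver was followed through 9 named components: the receptor Insr, the docking proteins Irs1 and Irs2, the phosphoinositide 3-kinase subunit Pik3r1, the kinases Akt1 and Akt2, the transcription factor Foxo3, and the negative regulators Ptpn1 and Grb10. Probes were taken by gene name in the array files. By the name printed in the files 7 of the 9 genes had a probe, 15 probes in all, among 27670 gene names on the array. A further 3 probes carried older names, Foxo3a for Foxo3 and D630014A15Rik, which RefSeq lists as a synonym of Insr, and they were included after the files had been seen. This gave 18 probes of 8 genes. No probe was matched to Irs2 by name, accession or synonym, so Irs2 is not analysed here.

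Insulin binding activates the receptor tyrosine kinase, which phosphorylates docking proteins of the Irs family. These recruit phosphoinositide 3-kinase, whose lipid product brings Akt kinases to the membrane, and Akt then phosphorylates Foxo factors and keeps them out of the nucleus. In hepatocytes this route lowers glucose output and raises lipid synthesis. SIRT1, an NAD-dependent protein deacetylase, is known to act on Foxo proteins and on other regulators of hepatic metabolism.

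Livers came from male mice, 10 weeks old, on a chow diet with food freely available, on a 95% C57BL/6 background, and were taken at 4 pm. Controls were Lox mice, and the others lacked SIRT1 in the liver (SIRT1 LKO). The study sampled them to examine PPAR-alpha dependent phenotypes. Each group had 6 mice in 3 pools of 2, and each pool was hybridised to 1 one-colour Agilent whole mouse array. Neither the driver of the deletion nor the exons removed are stated in the labels. The replicate is a pool, so p-values measure the spread between pools. Because whole liver was used, fewer cells of a type and less RNA per cell cannot be told apart.

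Values are given on a log2 scale after subtracting each array's own 75th percentile, an intensity between 1005 and 1056 on 5 arrays and of 1289 on that of LKO pool 3. The share of probes well above background ran from 52.2% to 66.4%, and the number of arrays limits the precision. For LKO pool 3 the scanner file and the deposited value table differed: only 0.863% of probes matched within 1%, against at least 99.8% in the other pools. The scanner files were used, and results are given with the value table and without this pool where that matters. The 3 controls shared a slide that held no LKO array, LKO pools 1 and 2 shared a second and LKO pool 3 was on another, so slide and genotype cannot be told apart. Of the 2 Sirt1 probes, the first was at 0.29, 0.37 and 0.24 in control pools 1 to 3 and at -0.07, 0.09 and 0.16 in the LKO pools (difference -0.24, SE 0.10, limma adjusted p = 0.243). The second differed by -0.02, and neither checks the labels.

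Probes of a gene are numbered from the 5′ end of its strand. Sequences are shown for genes whose probes had mean genotype differences of opposite sign, and for the probe with the smallest p-value. After normexp background correction the signs agreed within each of these genes. Each is written 5′ to 3′, as its first 30 bases except for Akt1 probe 1, which is whole because it covers more genome than its own length. Capitals mark the start codon of Akt1.
Insr probe 1: ggcaagggactgcttcctgtgaggtggatg
Insr probe 2: cagattctagctaatgaattcttgacaaca
Akt1 probe 1: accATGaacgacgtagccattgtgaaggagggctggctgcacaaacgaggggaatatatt
Akt1 probe 2: gccattgctgcaccatgtcgttttttacaa
Grb10 probe 3: tttctaaatgacgactccgtgtaaccacct

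On mm7, the build of the array files, Insr probe 1 lies on the minus strand at chr8:3058920-3058979 and probe 2 at chr8:3051011-3051070. Akt1 probe 1 spans chr12:110187243-110196509, a stretch of 9267 bases for a probe of 60, and Akt1 probe 2 lies at chr12:110178813-110178872, both on the minus strand. Grb10 probe 3 lies at chr11:11882970-11883029, also on the minus strand. Exons and UTRs were not assigned, since no mm7 annotation was used here.

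The first question was whether any component differed between the genotypes. None of the 15 tested probes of the 8 genes passed an adjusted p of 0.05 in limma, where 0.0636% of all 23592 tested probes did. Testing required a signal well above background in every pool of either genotype. The largest member difference among tested probes, at Pik3r1 probe 2, was 1.48-fold. In simulated data only 14.4% of changes planted at 1.5-fold were detected, so not passing does not show equal levels. At an unadjusted p under 0.05 there was 1 member probe, Grb10 probe 3, against 21.2% of all probes. In 9 probes the LKO mean was higher and in 6 it was lower, with a median difference of 0.24 against 0.02 over all tested probes. Probes of the same gene are not independent, and Pik3r1, with the most tested probes, was higher at all of them. The 3 LKO values lay wholly above the controls in 3 probes, where 14.9% of all probes did, and wholly below in 2, where 13.9% did.

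**Figure D1:**
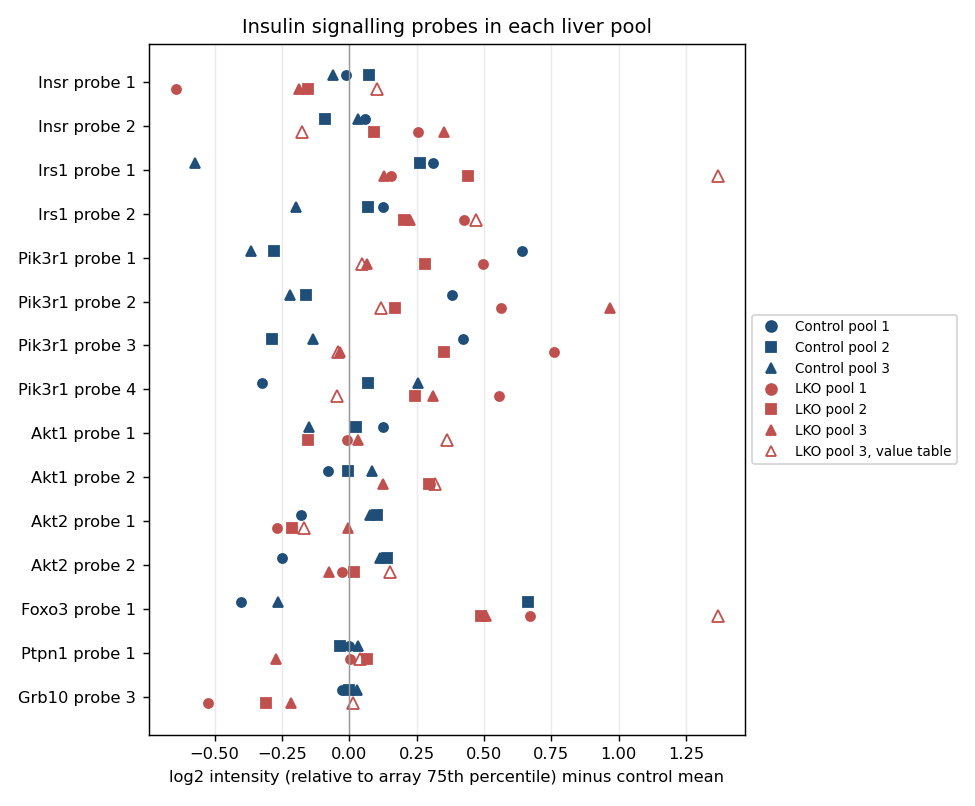
Log2 intensity of each tested probe in each pool, as the difference from the control mean of that probe; blue marks are control pools, red marks LKO pools, and open triangles LKO pool 3 in the value table. The LKO pools lie wholly above the controls for Insr probe 2, Irs1 probe 2 and Akt1 probe 2, and wholly below for Insr probe 1 and Grb10 probe 3.

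The receptor gave opposite differences at its probes, of which probe 1 is named Insr in the files and probe 2 D630014A15Rik. Insr encodes the insulin receptor itself. Insr probe 1 was at -3.85, -3.77 and -3.90 in the controls and at -4.48, -3.99 and -4.03 in the LKO pools. All LKO values were lower, with pool 1 the lowest (difference -0.33, SE 0.15, 95% interval -0.69 to 0.04, adjusted p = 0.270 by limma), but the difference was 0.26 after normexp background correction. Without LKO pool 1 it was -0.17. This probe was dim, with processed intensities between 45.0 and 79.0.

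Insr probe 2 was at 1.58, 1.43 and 1.55 in the controls and at 1.77, 1.61 and 1.87 in the LKO pools. All LKO values were higher (difference 0.23, SE 0.11, 95% interval -0.03 to 0.49, adjusted p = 0.269 by limma). With the value table LKO pool 3 was at 1.34, below every control, and the difference was 0.06; after normexp it was 0.14. Within an array, probe 2 minus probe 1 averaged 5.36 ± 0.14 over the control pools and 5.92 ± 0.33 over the LKO pools (SD, n = 3). The shift was 0.56 (exact permutation test, two-sided, p = 0.1, the smallest that 3 against 3 allows, and 0.15 adjusted over 3 pairs). Because the probes of this pair separated the groups in opposite directions, that p was fixed by the choice of the pair. With the value table the shift was 0.29 (exact permutation p = 0.5), and after normexp -0.12 (exact permutation p = 0.9). This pair was chosen after its values had been seen.

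Irs1 is a docking protein that the activated receptor phosphorylates. Irs1 probe 2 (chr1:82447810-82447869, minus strand) was at 2.50, 2.45 and 2.18 in the controls and at 2.80, 2.58 and 2.60 in the LKO pools. The groups did not overlap, nor did they with the value table or without LKO pool 3. The difference was 0.28 (SE 0.13, 95% interval -0.02 to 0.59, adjusted p = 0.255 by limma), which did not pass, and 0.19 without control pool 3.

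Irs1 probe 1 (chr1:82451682-82451741) was at -3.84, -3.89 and -4.73 in the controls and at -4.00, -3.71 and -4.02 in the LKO pools. The groups overlapped and control pool 3 stood lowest (difference 0.24, SE 0.25, adjusted p = 0.608 by limma). Without control pool 3 the difference was -0.04, without control pool 1 0.40, without control pool 2 0.37 and 0.14 when LKO pool 2 was left out. The value table gave 0.66. Control pool 3 was also the lowest value at probe 2.

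Pik3r1 encodes p85-alpha, a regulatory subunit that holds the catalytic subunit of phosphoinositide 3-kinase and links it to Irs proteins. Its 4 probes had differences from 0.28 to 0.57, all positive and none past the threshold, and the groups overlapped at each. Probe 2 (chr13:98794799-98794858) was at 0.28, -0.26 and -0.32 in the controls and at 0.47, 0.07 and 0.87 in the LKO pools. Control pool 1 lay above LKO pool 2, and LKO pool 3 was the highest (difference 0.57, SE 0.25, 95% interval -0.03 to 1.16, adjusted p = 0.251 by limma). With the value table LKO pool 3 was at 0.02 and the difference was 0.28, and without that pool it was 0.37.

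Pik3r1 probe 3 (chr13:98792997-98793056) was at 1.55, 0.84 and 0.99 in the controls and at 1.89, 1.48 and 1.09 in the LKO pools. LKO pool 1 was the highest, and control pool 1 exceeded LKO pools 2 and 3 (difference 0.36, SE 0.26, adjusted p = 0.457 by limma). The difference was 0.16 without LKO pool 1 and 0.22 without control pool 2, and 0.56 without LKO pool 3 and 0.57 without control pool 1. Probe 4 (chr13:98790149-98790208) was at 0.52, 0.91 and 1.10 in the controls and at 1.40, 1.09 and 1.16 in the LKO pools. Here control pool 1 was the lowest of the 6, while at the other 3 probes it was the highest control (difference 0.37, SE 0.17, adjusted p = 0.275 by limma), and without it the difference was 0.21. Probe 1, which spans 1043 bases at chr13:98797997-98799039, was at -1.22, -2.14 and -2.23 in the controls and at -1.37, -1.58 and -1.80 in the LKO pools. Control pool 1 was the highest of the 6 values there (difference 0.28, SE 0.28, adjusted p = 0.596 by limma). The difference was 0.60 without control pool 1, but 0.14 without control pool 2, 0.10 without control pool 3 and 0.17 without LKO pool 1. The 4 probes share the same RNA and are not replicates of one another.

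**Figure D2:**
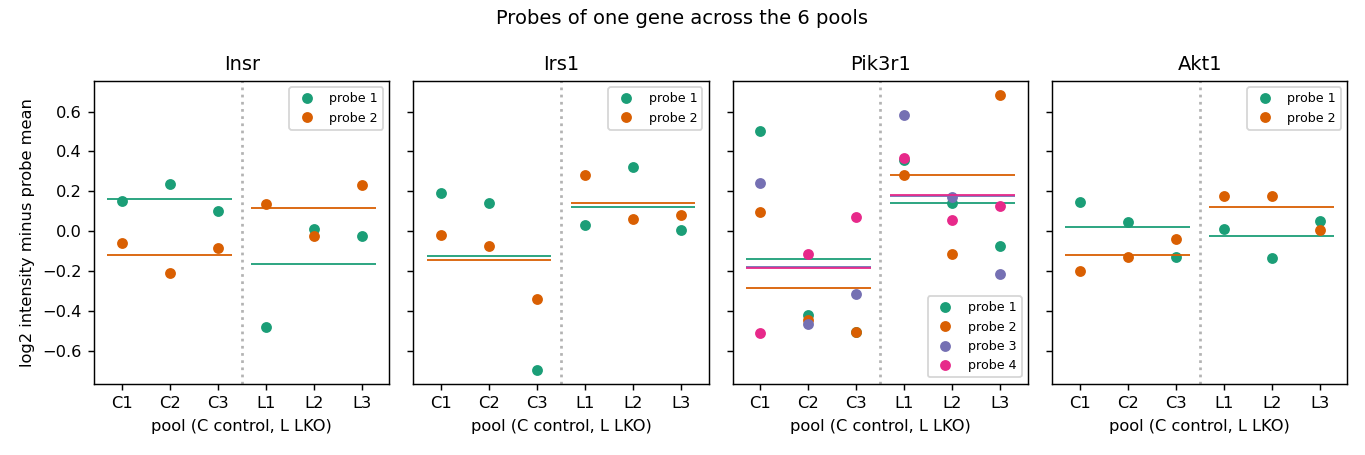
Log2 intensity of each tested probe minus its mean over the 6 pools (C1 to C3 control, L1 to L3 LKO) for the genes named above each panel; horizontal lines are group means. The Insr probes differ in opposite directions (-0.33 and 0.23), though not after normexp (0.26 and 0.14, not drawn). The 4 Pik3r1 probes have positive differences from 0.28 to 0.57 with overlapping pools.

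Akt1 and Akt2 are the serine/threonine kinases that carry the signal from the membrane, Akt2 being the form most closely tied to insulin action on glucose. Akt1 probe 2 was printed as 10 spots per array, whose SD within an array was 0.03 to 0.08. It was at 3.01, 3.08 and 3.17 in the controls and at 3.38, 3.38 and 3.21 in the LKO pools. The groups did not overlap, with LKO pool 3 nearest to the controls. The difference was 0.24 (SE 0.10, 95% interval -0.00014 to 0.48, unadjusted p = 0.0501 and adjusted p = 0.236 by limma), and 0.30 whether LKO pool 3 came from the value table or was left out.

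Akt1 probe 1, at the start codon, was at -2.85, -2.95 and -3.13 in the controls and at -2.98, -3.13 and -2.94 in the LKO pools. Its processed intensities were low, between 116 and 168. The groups overlapped (difference -0.04, SE 0.11, adjusted p = 0.853 by limma), and the sign turned under normexp (0.19), with the value table (0.07), and without control pool 1 (0.02) or LKO pool 2 (0.01). Probe 2 minus probe 1 within an array shifted by 0.28 (exact permutation test, two-sided, p = 0.2, adjusted p = 0.2), and by -0.03 after normexp, a pair chosen after its values had been seen.

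Akt2 probe 2 (chr7:24558143-24558202, plus strand) was at 2.78, 3.17 and 3.15 in the controls and at 3.01, 3.05 and 2.96 in the LKO pools. All LKO values lay inside the control range (difference -0.03, SE 0.13, 95% interval -0.34 to 0.28, adjusted p = 0.918 by limma). The sign turned with the value table (0.05) and without control pools 2 (0.04) or 3 (0.03), and without control pool 1 the difference was -0.15. Akt2 probe 1 (chr7:24556257-24556397) was at 1.35, 1.63 and 1.60 in the controls and at 1.26, 1.31 and 1.52 in the LKO pools. LKO pools 1 and 2 lay below every control and LKO pool 3 did not (difference -0.16, SE 0.13, adjusted p = 0.487 by limma). With a pool left out the difference ran from -0.25, without control pool 1, to -0.11, without LKO pool 1.

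Whether the kinases differed from each other was asked within each array, with the brightest tested probe of each, Akt2 probe 2 and Akt1 probe 2. Akt2 minus Akt1 was -0.22, 0.10 and -0.02 in the controls and -0.38, -0.33 and -0.25 in the LKO pools. All LKO values were lower, and the means were -0.05 ± 0.16 and -0.32 ± 0.06 (SD, n = 3). The shift of -0.27 gave p = 0.1 in the two-sided exact permutation test, the smallest possible here, and 0.15 adjusted over 3 pairs. With the value table LKO pool 3 was at -0.21, above control pool 1, so the groups overlapped and the shift was -0.26 (exact permutation p = 0.2); after normexp it was -0.20 (exact permutation p = 0.2). Leaving out each pool in turn gave shifts from -0.36 to -0.20. The shift depends on which Akt1 probe is taken. Between genotypes Akt1 probe 2 differed by 0.24 and Akt1 probe 1, a dimmer probe, by -0.04, while Akt2 probe 2 differed by -0.03. Akt2 probe 1 differed by -0.16, and pairings with the other probes were not tested. The same comparison of Irs2 with Irs1 was not run, for want of an Irs2 probe.

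Foxo3 is a Foxo transcription factor that Akt phosphorylates and SIRT1 can deacetylate. Foxo3 probe 1 (chr10:41996607-41996666, minus strand) was at -4.83, -3.77 and -4.70 in the controls and at -3.76, -3.95 and -3.93 in the LKO pools. Control pool 2 lay among the LKO pools, and the other controls were lower (difference 0.56, SE 0.28, 95% interval -0.11 to 1.22, adjusted p = 0.300 by limma). The probe was dim, at processed intensities of 36.1 to 84.7, and the difference was 0.84 with the value table and -0.03 with array weights. It was 0.36 without control pool 1 and 0.89 without control pool 2. Foxo3 probe 2 was well above background on 1 control array and 2 LKO arrays and was not tested.

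Ptpn1 encodes PTP1B, the phosphatase that removes phosphate from the activated receptor. Its probe (chr2:167769450-167769509, plus strand) was at 3.25, 3.22 and 3.28 in the controls and at 3.25, 3.31 and 2.98 in the LKO pools. LKO pool 2 was the highest of the 6 and LKO pool 3 the lowest (difference -0.07, SE 0.12, 95% interval -0.35 to 0.21, adjusted p = 0.768 by limma). The sign turned when LKO pool 3 was left out (0.03) or taken from the value table (0.04).

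Grb10 encodes an adaptor that binds the receptor and restrains its signalling, from an imprinted gene. Grb10 probe 3 was at -2.02, -1.99 and -1.96 in the controls and at -2.51, -2.30 and -2.20 in the LKO pools. All LKO values were lower, and the controls lay within an SD of 0.03 against 0.16 in the LKO pools. The difference was -0.35 (1.27-fold lower, SE 0.11, 95% interval -0.61 to -0.09, unadjusted p = 0.0166 and adjusted p = 0.154 by limma), which did not pass. With the value table LKO pool 3 was at -1.98, inside the control range, and the difference was -0.27, while without that pool it was -0.42. Over 18 alternatives the difference ran from -0.42 to -0.16, the latter with normexp, and the adjusted p from 0.00884, with array weights, to 0.954.

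The other Grb10 probes gave no tested value. Grb10 probe 1 was well above background on none of the 6 arrays, and Grb10 probe 2 on 1 control array and no LKO array. The Grb10 difference therefore rests on a single probe.

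**Figure D3:**
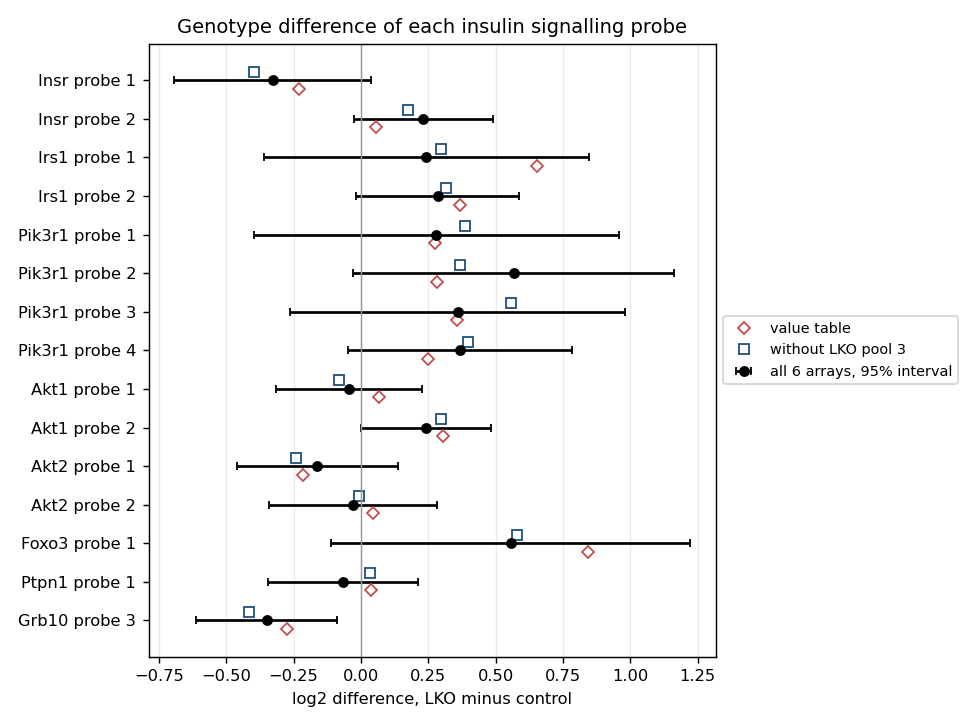
Log2 difference, LKO minus control, of each tested probe with its 95% limma interval (black), with the value table (red diamonds) and without LKO pool 3 (blue squares). The interval of Grb10 probe 3, from -0.61 to -0.09, lies wholly below 0, and the upper end for Akt1 probe 2 is 0.48.

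The source of LKO pool 3 bore on these patterns. With LKO pool 3 from the value table, 12 of the 15 probes kept the sign of their difference, and 2 lay wholly above the controls (19.2% of all tested probes did) and 0 wholly below (14.9%). Those above were Irs1 probe 2 and Akt1 probe 2. Without LKO pool 3, 14 kept their sign, and 3 lay wholly above (28.1%) and 3 wholly below (23.6%). No member passed the threshold in limma either way, with 1.31% of all probes called with the value table and 2.96% without the pool; 3 and 2 member probes had an unadjusted p under 0.05, where 26.3% and 30.6% of all probes did. With array weights, which gave control pool 2 a weight of 8.47, 7 of the 15 passed in limma, where 40.1% of all probes did.

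The genes whose pattern over the 6 arrays was most like that of Grb10 probe 3 were sought among 15983 genes, by root mean square difference of centred log2 values. The nearest was Prpf8, a core splicing factor, at 0.0134. Next came Harbi1 (0.0186), Galc, a lysosomal galactosylceramidase (0.0289), Gprc5a (0.0293) and Ccni (0.0349). With 6 arrays this is a description only.

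The rest of the pathway was read from 8 lists of 108 genes, of which 100 were tested by their brightest tested probe. None passed in limma; at an unadjusted p under 0.05 there were 4 higher and 11 lower, 15 of 100 against 21.2% of all tested probes (2526 higher and 2482 lower), and the median difference was 0.00. The LKO values lay wholly above the controls in 8 genes, where 14.9% of all probes did, and wholly below in 17, where 13.9% did. With LKO pool 3 from the value table these were 21 and 28 genes, against 19.2% and 14.9% of all probes.

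Among ligands and receptor relatives, 9 of 10 were tested, none passed and the median was -0.14. The receptor relative Insrr differed by -0.55 (adjusted p = 0.0797 by limma), but by 0.04 after normexp, and Igf2r, which clears Igf2, by 0.43 (adjusted p = 0.185). Of 15 adaptors at the receptor 12 were tested (median 0.02). The docking protein Irs4 differed by -0.98, with every LKO value lower (SE 0.11, adjusted p = 0.0571 by limma), and by -0.55 after normexp. It passed in limma without LKO pool 3 (adjusted p = 0.0450, within a range of 0.00238 to 0.773 over its alternatives). Once the filter on dim probes was recomputed, no pathway gene passed in limma without that pool. There 29 of 100 pathway genes had an unadjusted p under 0.05, against 7200 of 24505 probes. Dok4 differed by 0.20 (adjusted p = 0.281).

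For the 11 genes of phosphoinositide 3-kinase and the lipid phosphatases the median was 0.06. The catalytic subunit Pik3cb differed by 0.18 (adjusted p = 0.459 by limma). Of 28 genes of Akt, the mTOR complexes and their substrates, 26 were tested (median -0.08), and 2 lay wholly above and 7 wholly below the controls, against the same 14.9% and 13.9% of all probes. The pseudokinase Trib3, an Akt-binding protein, differed by -0.82 (adjusted p = 0.102 by limma), and Foxo4 by -0.68 (adjusted p = 0.0843), though by -0.06 after normexp. With the value table the Foxo4 difference was -0.35 (adjusted p = 0.379 by limma), and LKO pool 3 (-3.44) lay above every control. Foxo1, named after its values had been seen, differed by -0.24 (adjusted p = 0.239 by limma), with a second probe at -0.19.

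Among 13 negative regulators at the receptor the median was 0.12. Ceacam1, which promotes insulin clearance by hepatocytes, differed by -0.71 (adjusted p = 0.152 by limma) and its 3 probes by -0.71 to -0.25. It passed once LKO pool 3 was left out (-0.96, adjusted p = 0.0423) or taken from the value table (-0.94, adjusted p = 0.0432), within a range of 0.00312 to 0.720 over its alternatives. Mapk8 differed by -0.45, with its 4 probes between -0.45 and 1.59. In the Ras-MAP kinase branch 12 of 13 were tested (median -0.14), with Map2k1 at -0.28 and Nras at -0.26. Liver genes that insulin raises had 8 of 9 tested, a median of 0.20 and no gene whose groups did not overlap in the scanner files. With LKO pool 3 from the value table, 4 of the 8, Acly, Pklr, Fasn and Srebf1, lay wholly above the controls, where 19.2% of all probes did, the last pair named after their values were seen. Pklr, liver pyruvate kinase, differed by 0.47 (adjusted p = 0.273 by limma) and Acly, ATP citrate lyase, by 0.61 (adjusted p = 0.468). Pklr passed once LKO pool 3 was left out (0.72, adjusted p = 0.0477) or taken from the value table (0.71, adjusted p = 0.0456), within a range of 0.00533 to 0.814 over its alternatives. Acly passed with the value table (1.14, adjusted p = 0.0487, range 0.0228 to 0.902). Of 10 genes that FOXO factors raise the median was -0.05, with Cited2 at -0.60 (adjusted p = 0.0704 by limma) and the coactivator gene Ppargc1a at -0.75 (adjusted p = 0.218). At that Ppargc1a probe LKO pool 3 (0.24) lay inside the control range, and a second probe differed by -0.21. Cited2 passed once LKO pool 3 was left out (-0.61, adjusted p = 0.0476) or with a variance trend (-0.60, adjusted p = 0.0405), within a range of 0.00238 to 0.720 over its alternatives.

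**Figure D4:**
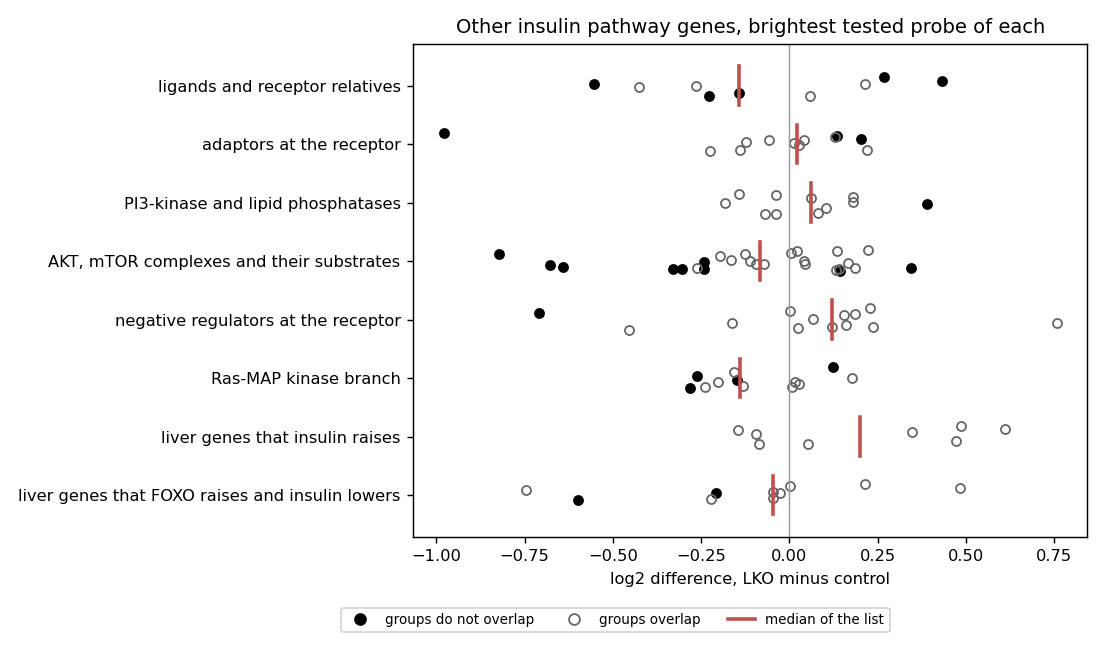
Log2 difference, LKO minus control, of each tested pathway gene by list; filled points are genes whose groups do not overlap, open points those that do, and red bars list medians. Irs4 lies farthest left at -0.98, and list medians run from -0.14 to 0.20.

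Tissue identity was checked on marker genes. All 8 hepatocyte markers with a probe were well above background on all 6 arrays, with summed levels (multiples of the array's 75th percentile) of 1436 to 1814 in the controls and 1556 to 1984 in the LKO pools. No marker of the 10 lists passed in limma. The summed level of 8 stellate cell markers ran from 48.8 to 54.6 among control pools and from 38.8 to 48.4 among LKO pools, although 4 of the 8 were lower and their median difference was 0.02. That of 6 skeletal muscle markers ran from 0.39 to 0.46 and from 0.48 to 0.52, with Ckm and Myh4 above background on no array and only 2 tested. Of 9 Kupffer cell and macrophage markers 8 were lower (median -0.21), with summed levels of 66.8 to 111.3 and 73.8 to 90.3. The median was -0.27 for 7 tested lymphocyte markers (5 lower), -0.26 for 4 pancreas markers (4 lower) and 0.19 for 7 cholangiocyte markers (1 lower), each with overlapping sums. The part of these cell types in the differences of Insr, Irs1, Akt1 and Grb10 was not tested.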

How the data were processed

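Scanner files hold spot intensity; the submitters' processing notes name Agilent Feature Extraction 9.5, and the processed intensity was background-subtracted and spatially detrended, per the file headers. Other flags per spot are deposited as 0 or 1. The deposited value table holds linear intensity made with the Rosetta Resolver error model, per the labels. Control spots were left out, outlier spots set missing and spots of a probe averaged after log2; the 75th percentile over probes was subtracted. Names came from the files, RefSeq accessions (22951 probes) or synonyms (3109), assembly GRCm38.p6. The genotype difference was fitted with limma 3.58.1 in R 4.3.3, two-sided, Benjamini-Hochberg adjusted over 23592 probes, threshold 0.05. Simulated data with planted changes were run through the same model. At 1.5-fold, 14.4% of the planted changes were detected, rising to 51.6% at 2-fold and 87.3% at 4-fold. False calls averaged 5.9 per simulation. The members and lists were chosen with earlier results of these data known. Named genes are every member, the 2 smallest p-values in each list, and the 5 genes nearest to the member probe of smallest p; 1 gene so chosen is not reported here. Pair p-values were adjusted over 3 pairs, not the 2 planned. Alternatives were normexp (offset 50), quantile and median scaling, other filters, outliers kept, 1 probe per gene, slide and replicate blocks, variance trend, array weights, the value table and each pool left out. Figures used matplotlib 3.10.9.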

Additional observations from a re-analysis of the deposited data

How the results depend on the processing

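No member probe passed under 17 of 18 alternatives in limma (0 to 5 at an unadjusted p under 0.05). The 5 of 15 came with a variance trend, where 5211 of 23592 probes had such a p. The 0 came with normexp (1568 of 23592 probes) and with the slide as a random block (2631 of 23546). With array weights 7 of 15 passed in limma, where 40.1% of all probes did. The weights were 8.47 for control pool 2 and 0.205 for LKO pool 3. The count over all probes, 15, was 0 with normexp (limma, 1568 at an unadjusted p under 0.05), without a filter (6859), with the slide as a random block (2631) and with the replicate block (4361); it was 49 for probes above background on all 6 arrays, 24 with 1 probe per gene, 91 with a variance trend, 9452 with array weights and 308 with the value table. Leaving out each pool gave 0 to 698, the 698 without LKO pool 3 and 0 in the others (3188 to 4492 at an unadjusted p under 0.05). These fits keep the probe set of all 6 arrays. They were first run with the filter recomputed on the arrays left, and this was changed after those counts had been seen: 0, 3, 1, 0, 0 and 0 probes without control pools 1 to 3 and LKO pools 1 to 3 (limma, 3287 to 7200 at an unadjusted p under 0.05). The 698 therefore depends on that choice, and no member passed either way. Pathway genes passing, 0 of 100, numbered 1 for probes above background on all 6 arrays, 1 with 1 probe per gene, 2 with a variance trend, 40 with array weights and 3 with the value table. Leaving out pools gave 0 to 4, the 4 without LKO pool 3, and 0 in every case with the filter recomputed. In those recomputed limma fits 7 to 29 of 100 had an unadjusted p under 0.05. Over all probes the counts were 3287 of 23634 to 7200 of 24505.

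Of 263 member values under alternatives, 243 kept sign and side of the threshold, 7 passed (all with array weights) and 13 turned sign. Akt1 probe 1 was 0.19 with normexp, 0.068 with the value table and -0.12 to 0.020 with a pool left out. Akt2 probe 2 was 0.047 with the value table and -0.15 to 0.040 with a pool left out. Foxo3 probe 1 was -0.026 with array weights, Insr probe 1 was 0.26 with normexp, and Irs1 probe 1 was -0.044 to 0.40 with a pool left out. Ptpn1 was 0.060 with array weights, 0.036 with the value table and -0.13 to 0.034 with a pool left out. The cause was not tested. Deviations of same-numbered pools had correlations of 0.009, -0.043 and -0.093, against -0.080 to 0.129 for control and LKO pools of unlike number. With so few pools this cannot show whether same-numbered pools were paired, and the main fit did not pair them. With the replicate block no member passed in limma, and the Akt2 minus Akt1 shift was again -0.27. The exact sign-flip permutation p of that shift was 0.25, the smallest that 3 pairs of same-numbered pools allow. Dim probes (Insr 1, Irs1 1, Foxo3 1 and, less so, Akt1 1) limit what their values show.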
